A study of Mus musculus with 24 samples.

Results

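Notch receptors, Notch ligands and targets of Notch signalling were followed as 10 genes in growth plate cartilage, namely the receptors Notch1, Notch2 and Notch3, the ligands Jag1, Jag2, Dll1 and Dll4, and the targets Hes1, Hey1 and Heyl. The list was drawn up by pathway role with earlier results of these data known, so its counts are not those of an unselected list. Its probe sets were then taken by symbol alone, whatever their values. The 10 genes are 10 of the 22180 genes with a probe set of a single symbol. All 10 were measured, on 12 probe sets in all, of which 11 carried 1 symbol and 1 carried several. Each gene is described by its single-symbol probe set with the highest mean, and the other probe sets of Dll1 and Dll4 are given separately.

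Tibial growth plates of mice aged 3 days were divided into their proliferative (PZ) and hypertrophic (HZ) zones, and each combination of zone and genotype was measured on 6 arrays, which makes 24 arrays in 4 groups. Both genotypes carried Col2-cre and lacked Ezh1 (Ezh1-/-). The wild-type mice kept Ezh2 (Ezh2 +/+), and the Ezh1/2 mice carried floxed Ezh2 on both chromosomes (Ezh2 fl/fl). Ezh1 and Ezh2 are the methyltransferases that place the repressive mark H3K27me3. The Col2 promoter drives Cre in cartilage, so cells of the perichondrium and bone keep Ezh2. Tissue of each zone was cut out by laser capture microdissection, and 1 array held 1 zone of 1 animal after RNA amplification. Values are log2 expression levels normalised by robust multi-array averaging (RMA), so that a difference of 1 is a doubling. They do not say whether a probe set lies above background, and levels of different genes are not set against each other.

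Notch receptors are cut when a ligand on a neighbouring cell binds them, and the freed intracellular part enters the nucleus and joins the DNA-binding protein RBPJ and a Mastermind coactivator. The complex switches on repressors of the Hes and Hey families. In growth cartilage the pathway is known as a regulator of chondrocyte maturation, and in blood vessels Dll4, Jag1, Notch1, Hey1 and Heyl are known for their part in vessel sprouting and wall formation. Vessels reach the lower edge of the HZ, where cartilage is replaced by bone.

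The core of the site that RBPJ recognises, TGGGAA, and its fuller form GTGGGAA, which contains the core, were looked for on both strands in the 250 bases before the annotated start of each gene (RefSeq, build GRCm38.p6). Promoters were matched for 7 of the 10 genes (not Hes1, Hey1 and Heyl), and 0 of their 8 promoters held the core. Of all 32851 promoters of this length, 21.6% held the core and 5.42% the fuller form. The other genes of the pathway had 49 promoters, some of them alternative starts of 1 gene, of which 13 (26.5%) held the core and 6 (12.2%) the fuller form. Stretches of 60 bases are shown for the ligands Dll4 and Jag1, which differed between the zones in both genotypes and have no match, and for Hey2 and Lfng, which also differed and hold the fuller form. Each is written 5′ to 3′ on the strand of its gene, and capitals mark the fuller form or its reverse complement. Those of Dll4 (chr2:119325724-119325783, plus strand) and Jag1 (chr2:137116521-137116580, minus strand) end at the base before the start. That of Hey2 (chr10:30842957-30843016, minus strand) begins 233 bases before the start, and that of Lfng (chr5:140607206-140607265, plus strand) begins 135 bases before it, with another copy of the core in small letters at its 5′ end. A match is a description of the letters and not a measured binding site.
Dll4: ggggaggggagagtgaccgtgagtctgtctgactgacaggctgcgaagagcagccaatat
Jag1: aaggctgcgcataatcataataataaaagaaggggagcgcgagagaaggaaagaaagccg
Hey2: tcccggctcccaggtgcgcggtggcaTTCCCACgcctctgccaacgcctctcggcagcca
Lfng: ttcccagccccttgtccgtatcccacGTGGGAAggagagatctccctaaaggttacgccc

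The zones carried their markers in both genotypes. Col10a1, the collagen of hypertrophic chondrocytes, was higher in the HZ than in the PZ by 3.27 in wild-type mice and by 3.65 in Ezh1/2 mice, and the proliferation marker Mki67 differed by -1.59 and -1.39. Ezh2 had PZ levels of 6.88 to 7.27 in wild-type and 5.85 to 6.67 in Ezh1/2 mice (difference -0.63, standard error 0.14, adjusted p = 0.0852). In the HZ its mean levels were 6.27 in wild-type and 6.43 in Ezh1/2 mice (difference 0.17, adjusted p = 0.899), so the labels of the HZ arrays are not checked by this gene. Arrays of one group correlated at 0.954 to 0.974 in wild-type PZ, 0.956 to 0.973 in Ezh1/2 PZ, 0.894 to 0.946 in wild-type HZ and 0.896 to 0.939 in Ezh1/2 HZ. The interquartile range of an array was 1.354 to 1.781 in the HZ and 1.785 to 2.019 in the PZ. Along with this, the median difference of HZ over PZ in wild-type mice was 0.18 in the lowest of 4 equal bins of probe sets by mean level, then 0.137, -0.046 and -0.285 in the following bins. The corresponding medians in Ezh1/2 mice were 0.146, 0.087, -0.072 and -0.255.

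The first question was whether the pathway differed between the zones. In wild-type mice 7 of the 10 genes were higher in the HZ and 0 were lower at an adjusted p under 0.05 in limma, and in Ezh1/2 mice 6 were higher and 0 lower. The 6 were all among the 7, and they were Notch1, Jag1, Dll4, Hes1, Hey1 and Heyl. Over all probe sets, 17.3% were called higher and 15.9% lower in wild-type mice, and 14.3% higher and 15.6% lower in Ezh1/2 mice. The balance between the directions in wild-type mice turned when each array was centred on its median, with 5804 probe sets higher and 7043 lower. With only the 23521 probe sets of 1 symbol tested, 4866 were higher and 4480 lower in wild-type mice. In Ezh1/2 mice 4281 of them were higher and 4094 lower. The median difference of the 10 genes was 0.49 in each genotype, beside a median over all probe sets of 0.08 in wild-type and 0.04 in Ezh1/2 mice. The arrays of the zones did not overlap, with the HZ higher, for 3 of the 10 genes in wild-type mice, where 6.31% of all probe sets did so, and for 6 of the 10 in Ezh1/2 mice, where 6.53% did so. In tissue measured in bulk, a change in the share of a cell type and a change of RNA per cell cannot be told apart.

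**Figure D1:**
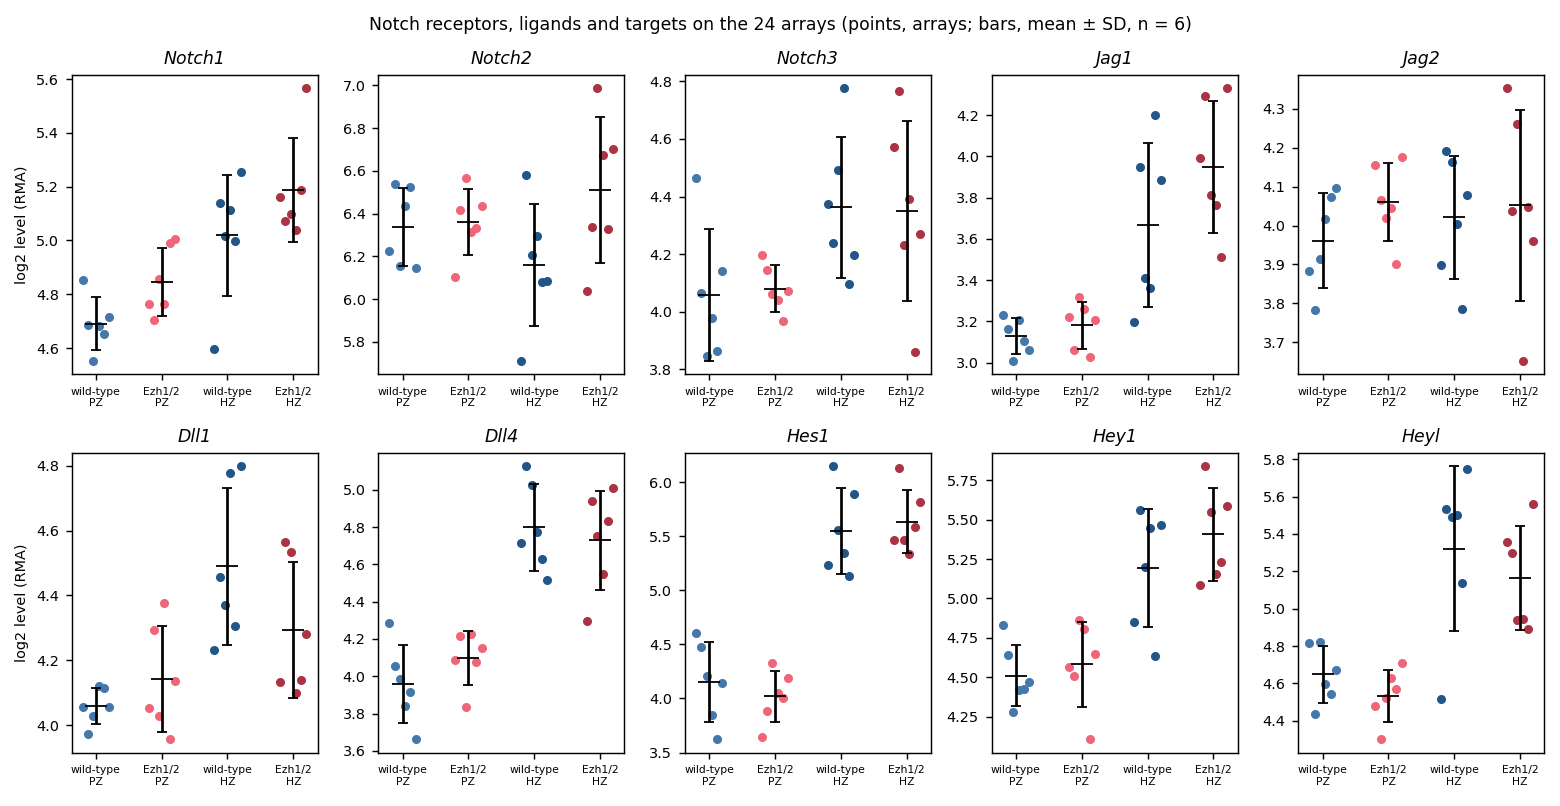
Log2 expression level (RMA, vertical axis, scaled for each gene) of the 10 genes on each of the 24 arrays in the 4 groups. Points are arrays, and black bars give mean and SD of 6 arrays. Hes1 and Dll4 lay higher on every HZ array than on every PZ array of the same genotype, and Jag2 lay at 3.65 to 4.35 throughout.

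Of the targets, Hes1, a repressor of the basic helix-loop-helix class, differed most. Its PZ levels ran from 3.63 through a median of 4.17 to 4.61 in wild-type mice and from 3.65 through 4.03 to 4.33 in Ezh1/2 mice. In the HZ they ran from 5.13 through 5.45 to 6.14 in wild-type and from 5.34 through 5.53 to 6.13 in Ezh1/2 mice. Every HZ array was thus above every PZ array, in both genotypes. The difference was 1.40 in wild-type mice (standard error 0.18, adjusted p = 3.52e-06 from limma), a 2.64-fold higher level, and 1.62 in Ezh1/2 mice (standard error 0.18, adjusted p = 5.06e-07), a 3.06-fold higher level.

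Hey1, a related repressor that acts downstream of Notch in vessels and heart, had wild-type levels from 4.28 through a median of 4.45 to 4.83 in the PZ and from 4.63 through 5.32 to 5.56 in the HZ. In Ezh1/2 mice the PZ levels ran from 4.11 through 4.61 to 4.86 and the HZ levels from 5.08 through 5.39 to 5.84. In wild-type mice 5 of 6 HZ arrays lay above all PZ arrays, and in Ezh1/2 mice all 6 did. The difference was 0.68 in wild-type mice (standard error 0.16, adjusted p = 0.00279) and 0.82 in Ezh1/2 mice (standard error 0.16, adjusted p = 0.000507).

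Heyl, another member of the Hey family, is best known from vascular smooth muscle. Its wild-type levels ran from 4.44 through a median of 4.63 to 4.82 in the PZ and from 4.51 through 5.50 to 5.75 in the HZ, and the Ezh1/2 levels from 4.30 through 4.54 to 4.71 and from 4.89 through 5.12 to 5.56. A single wild-type HZ array, number 1, lay at 4.51 and within the range of the PZ, while the other 5 were at 5.14 or more. Heyl was higher in the HZ by 0.67 in wild-type mice (standard error 0.16, adjusted p = 0.00234) and by 0.63 in Ezh1/2 mice (standard error 0.16, adjusted p = 0.00416).

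Of the ligands, Dll4, which signals between endothelial cells and is known from arteries and vessel tips, differed most in wild-type mice. Wild-type levels ran from 3.66 through a median of 3.95 to 4.28 in the PZ and from 4.52 through 4.74 to 5.12 in the HZ. Ezh1/2 levels ran from 3.84 through 4.12 to 4.23 in the PZ and from 4.29 through 4.79 to 5.01 in the HZ. The zones did not overlap in either genotype. The difference was 0.84 in wild-type mice (standard error 0.13, adjusted p = 2.19e-05) and 0.63 in Ezh1/2 mice (standard error 0.13, adjusted p = 0.000573). A probe set annotated to Dll4 together with the predicted gene Gm14207 differed by 0.25 (adjusted p = 0.155) and 0.16 (adjusted p = 0.387) and was not called.

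Jag1, a ligand of another structural class, had wild-type levels from 3.01 through a median of 3.13 to 3.23 in the PZ and from 3.20 through 3.65 to 4.20 in the HZ. In Ezh1/2 mice they ran from 3.03 through 3.21 to 3.32 and from 3.51 through 3.90 to 4.33. Wild-type HZ array 1 again lay within the PZ range, and the Ezh1/2 zones did not overlap. The difference was 0.54 in wild-type mice (standard error 0.15, adjusted p = 0.00862) and 0.77 in Ezh1/2 mice (standard error 0.15, adjusted p = 0.000434). Jag1 was in the lowest of the 4 bins by level, and its wild-type call was lost when the deposited values were quantile-normalised (0.42, adjusted p = 0.0692) and without both zones of wild-type numbers 3 and 5 (0.43, adjusted p = 0.0768), whose sex-linked genes differed between the zones.

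Dll1, the delta-like ligand of somite and neural development, was called in wild-type mice alone. Its wild-type levels ran from 3.97 through a median of 4.06 to 4.12 in the PZ and from 4.23 through 4.42 to 4.80 in the HZ, with no overlap. Ezh1/2 levels ran from 3.96 through 4.10 to 4.38 and from 4.10 through 4.21 to 4.57, with only 2 HZ arrays above all PZ arrays. The difference was 0.43 in wild-type mice (standard error 0.11, adjusted p = 0.0042) and 0.15 in Ezh1/2 mice (standard error 0.11, adjusted p = 0.311). The difference between these values, -0.28 (standard error 0.15, adjusted p = 0.907), did not pass the test, so Dll1 is not shown to differ between the genotypes in its zone difference.

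The other Dll1 probe set gave zone differences of 0.31 in wild-type (adjusted p = 0.0247) and -0.10 in Ezh1/2 mice (adjusted p = 0.467). The difference between these values was -0.41 (standard error 0.15, adjusted p = 0.664). Jag2, the partner of Jag1 in its class, had levels of 3.78 to 4.10 in wild-type PZ, 3.79 to 4.19 in wild-type HZ, 3.90 to 4.18 in Ezh1/2 PZ and 3.65 to 4.35 in Ezh1/2 HZ. These ranges overlapped throughout. Its zone difference was 0.06 (95% interval -0.15 to 0.27) in wild-type and -0.01 (-0.22 to 0.20) in Ezh1/2 mice.

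Of the receptors, Notch1 was the 1 that passed the test. Its wild-type levels ran from 4.55 through a median of 4.69 to 4.85 in the PZ and from 4.60 through 5.07 to 5.25 in the HZ, and the Ezh1/2 levels from 4.70 through 4.81 to 5.01 and from 5.04 through 5.13 to 5.57. In wild-type mice 5 of 6 HZ arrays lay above all PZ arrays, with array 1 the exception, and in Ezh1/2 mice the zones did not overlap. The difference was 0.33 in wild-type mice (standard error 0.10, adjusted p = 0.0182) and 0.34 in Ezh1/2 mice (standard error 0.10, adjusted p = 0.0154). The wild-type call was lost when each array was centred on its median (0.29, adjusted p = 0.053) and without both zones of wild-type numbers 3 and 5 (0.29, adjusted p = 0.123).

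Notch3, a receptor of vascular smooth muscle and pericytes, had levels of 3.85 to 4.47 in wild-type PZ, 4.10 to 4.78 in wild-type HZ, 3.97 to 4.20 in Ezh1/2 PZ and 3.86 to 4.77 in Ezh1/2 HZ. Its difference was 0.30 in wild-type (standard error 0.13, adjusted p = 0.0853) and 0.27 in Ezh1/2 mice (standard error 0.13, adjusted p = 0.137), which missed the threshold in both. Without wild-type PZ array 1 the wild-type difference of Notch3 was 0.38 (adjusted p = 0.0303), and without Ezh1/2 HZ array 5 the Ezh1/2 difference was 0.37 (adjusted p = 0.0339).

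Notch2, known as a main Notch receptor of chondrocytes and osteoclast precursors, had levels of 6.15 to 6.54 in wild-type PZ, 5.71 to 6.58 in wild-type HZ, 6.10 to 6.57 in Ezh1/2 PZ and 6.04 to 6.99 in Ezh1/2 HZ. The difference between the zones was -0.18 in wild-type (95% interval -0.48 to 0.12, adjusted p = 0.354) and 0.15 in Ezh1/2 mice (95% interval -0.15 to 0.45, adjusted p = 0.459). Notch2 lay in the highest of the 4 bins by level. After quantile normalisation its differences were 0.07 in wild-type (adjusted p = 0.733) and 0.38 in Ezh1/2 mice (adjusted p = 0.0347).

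**Figure D2:**
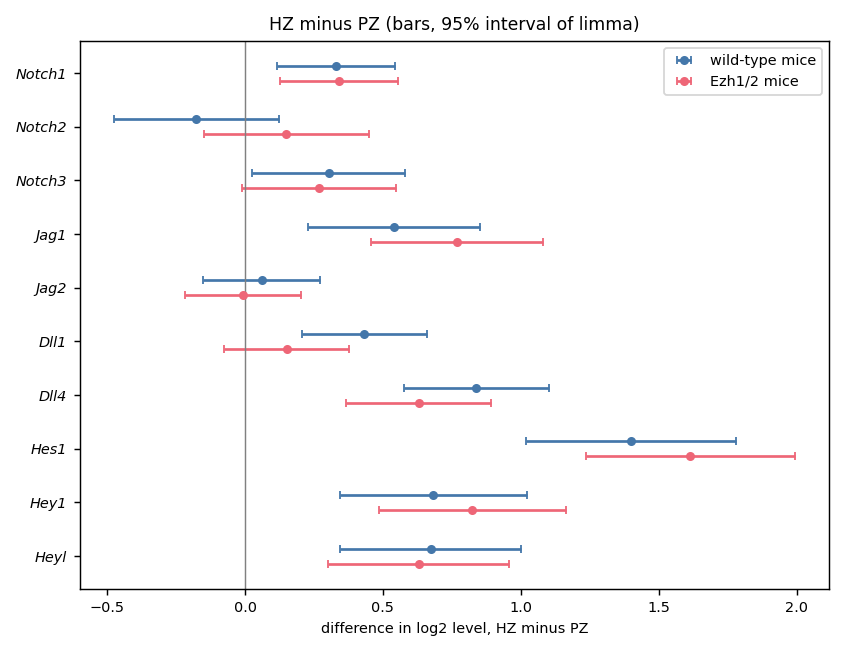
Difference in log2 level, HZ minus PZ (horizontal axis), of the 10 genes in wild-type (blue) and Ezh1/2 mice (red), with 95% intervals from limma over 24 arrays. All 3 targets lay to the right of 0 in both genotypes, from 0.63 for Heyl to 1.62 for Hes1, and the intervals of Notch2 and Jag2 included 0 in both.

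Markers of some other cell types moved with the zone. All 10 endothelial markers were higher in the HZ in both genotypes, with a median difference of 1.13 in wild-type and 1.23 in Ezh1/2 mice. Cdh5, the endothelial cadherin, differed by 2.97 and 3.72, and Emcn, a sialomucin of capillaries and veins, by 2.67 and 3.25. The mean level of the endothelial markers on an array ran from 3.77 to 4.76 in wild-type PZ, 3.84 to 4.08 in Ezh1/2 PZ, 4.35 to 6.12 in wild-type HZ and 4.98 to 6.21 in Ezh1/2 HZ. The lowest HZ value, 4.35, belonged to wild-type HZ array 1, the array on which Notch1, Notch2, Jag1, Dll1 and Heyl were also lowest in the group. Notch3, Jag2, Dll4, Hes1 and Hey1 were not lowest on it. Other arrays paired differently. Wild-type HZ array 6 had the highest endothelial mean of its group, 6.12, and the lowest Dll4, 4.52. On wild-type HZ array 5 the endothelial mean was next to lowest, 4.97, and Jag1 was highest, 4.20. Ezh1/2 HZ array 5 had the lowest endothelial mean of its group, 4.98, and the second highest Notch1, 5.19. The highest PZ value, 4.76, belonged to wild-type PZ array 1, which was highest of its group for Notch1, Notch3, Jag1, Dll4, Hes1 and Hey1. This array was also highest of its group for every marker list below except skeletal muscle (7.37, beside 8.15 on array 6). Wild-type HZ array 1 was also lowest of its group for macrophage (5.62) and osteoclast markers (5.22). It was highest for osteoblast (7.18) and erythroid markers (6.61). Its interquartile range, 1.354, was the lowest of the 24 arrays.

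Of the macrophage markers, 4 of 6 were higher in the HZ in wild-type and 5 of 6 in Ezh1/2 mice, with a mean level per array of 4.22 to 5.94 in wild-type PZ, 4.48 to 5.41 in Ezh1/2 PZ, 5.62 to 6.47 in wild-type HZ and 5.43 to 6.94 in Ezh1/2 HZ. Of the osteoclast markers, 5 of 7 and 7 of 7 were higher, with means of 3.92 to 5.72, 4.26 to 5.16, 5.22 to 6.27 and 5.73 to 6.90 in the same order of groups. Of the smooth muscle and pericyte markers, 2 of 8 were higher in each genotype and 1, Cnn1, was lower in Ezh1/2 mice, with means of 4.81 to 5.42, 4.90 to 5.21, 5.06 to 5.46 and 5.14 to 5.87. The remaining lists had no calls or had calls in both directions. Of the skeletal muscle markers 0 of 8 were called in either genotype, and of the erythroid markers 0 of the 2 measured. The muscle differences ran from -1.13 to 0.23 in wild-type and from 0.30 to 1.11 in Ezh1/2 mice. The mean level of the muscle markers varied widely within groups. It was 4.30 to 8.15 in wild-type PZ, 4.25 to 8.06 in Ezh1/2 PZ, 4.50 to 8.09 in wild-type HZ and 4.52 to 9.80 in Ezh1/2 HZ. The erythroid differences were 0.16 and 0.43 in wild-type and 0.08 and 0.97 in Ezh1/2 mice. Of the 5 osteoblast markers measured, 1 was higher and 2 were lower in wild-type mice, and 2 were higher and 2 lower in Ezh1/2 mice. Of the 8 perichondrium and fibroblast markers, 1 was higher and 1 lower in wild-type mice, and 2 were higher and 1 lower in Ezh1/2 mice. Hba-a1, Hbb-bs and Alas2 had no single-symbol probe set and were left out of the erythroid count. For the highest Hba-a1 probe set, PZ and HZ means were 9.75 and 10.97 in wild-type and 8.69 and 10.96 in Ezh1/2 mice. For Hbb-bs they were 11.82 and 12.25, and 10.90 and 12.39. In wild-type mice Alas2 (6.02 and 5.67) and another Hbb-bs probe set (7.56 and 7.42) went the other way. The part of the listed cell types in the zone differences of the Notch genes was not tested.

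**Figure D3:**
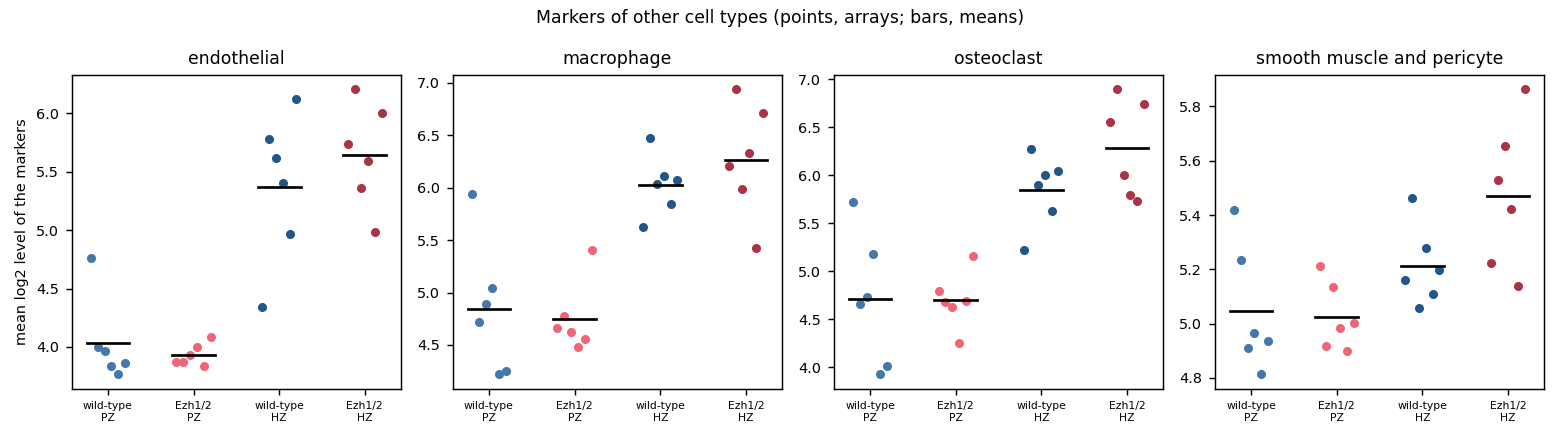
Mean log2 level of the markers of endothelial cells, macrophages, osteoclasts, and smooth muscle and pericytes (vertical axis) on each array in the 4 groups, with bars at the group means. The endothelial means were 4.03 in wild-type PZ, 3.93 in Ezh1/2 PZ, 5.37 in wild-type HZ and 5.65 in Ezh1/2 HZ.

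Of 47 other genes of the pathway, 44 were measured by a probe set of their own. In wild-type mice 14 of these were higher in the HZ and 9 lower, with a median difference of 0.09. In Ezh1/2 mice 14 were higher and 8 lower, with a median of 0.03. The 2 genotypes shared 13 of the 14 higher genes and all 8 of the genes lower in Ezh1/2 mice. Over all probe sets 17.3% and 14.3% were called higher in wild-type and Ezh1/2 mice, and 15.9% and 15.6% lower. With only the 23521 probe sets of 1 symbol tested, 4866 were higher and 4480 lower in wild-type mice. In Ezh1/2 mice 4281 of them were higher and 4094 lower. These shares stand beside the counts by role that follow.

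Other receptors, ligands and targets moved as follows. Notch4, the Notch receptor of endothelial cells, was higher in the HZ by 0.65 in wild-type (adjusted p = 0.00659) and 0.97 in Ezh1/2 mice (adjusted p = 0.000191). Dlk1, a ligand-like protein that lacks the domain by which ligands activate Notch, was lower, with differences of -1.08 and -0.94 (adjusted p = 0.0209 and 0.0466). Its relative Dlk2 was higher by 1.18 in wild-type mice (adjusted p = 4.24e-05) and differed by 0.32 in Ezh1/2 mice (adjusted p = 0.215). Of the 8 other targets, 3 were higher in wild-type and 4 in Ezh1/2 mice, and 0 were lower. Hey2, a Hey repressor of arteries, was higher by 0.59 and 0.54. Nrarp, a feedback inhibitor of the nuclear complex, was higher by 0.77 and 0.80, and Hes6, an inhibitor of Hes1, by 0.33 and 0.49. Hes3 was higher in Ezh1/2 mice (0.31, adjusted p = 0.00212) and missed the threshold in wild-type mice (0.17, adjusted p = 0.0689). Hes5, a widely used Notch target, differed by 0.17 (adjusted p = 0.297) and -0.14 (adjusted p = 0.401) and was not called.

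Genes that modify ligand and receptor differed in both directions. So did the probe sets as a whole, with 17.3% higher and 15.9% lower in wild-type mice and 14.3% and 15.6% in Ezh1/2 mice. Of the 9 modifiers measured, 2 were higher and 4 lower in each genotype. The higher ones were the fringe glycosyltransferases Lfng (0.67 and 0.78 in wild-type and Ezh1/2 mice) and Mfng (0.55 and 0.47), which alter how receptors respond to the ligand classes. The lower ones were Mib1, the ubiquitin ligase that lets ligands be internalised (-1.11 and -0.78), Neurl1b (-0.39 and -0.36) and the enzymes Poglut1 (-0.93 and -0.97) and Pofut1 (-0.62 and -0.59), which attach sugars to the receptors. Of the 8 proteases measured, those that shed the receptor ectodomain were higher, Adam10 by 0.61 and 1.07 and Adam17 by 0.81 and 0.68. The 6 subunits of gamma-secretase measured, among them Ncstn (-0.16 and 0.09), were not called in either genotype.

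In the nuclear complex, Rbpj itself differed by -0.04 in wild-type (adjusted p = 0.895) and 0.37 in Ezh1/2 mice (adjusted p = 0.188) and was not called. The coactivators Maml1 (0.51 and 0.53), Maml3 (0.69 and 0.68) and Kat2b (0.73 and 0.73) were higher, whereas Maml2 (-0.95 and -1.12) and the corepressor Spen (-0.62 and -0.48) were lower. Of the regulators of receptor turnover, Numb, an inhibitor of Notch (0.66 and 0.60), and Dtx4 (0.56 and 0.41) were higher, and Dtx3 was lower (-1.27 and -1.09). Fbxw7, which marks the intracellular part of Notch for degradation, was lower in wild-type mice (-0.29, adjusted p = 0.0382) and differed by -0.04 in Ezh1/2 mice (adjusted p = 0.809).

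**Figure D4:**
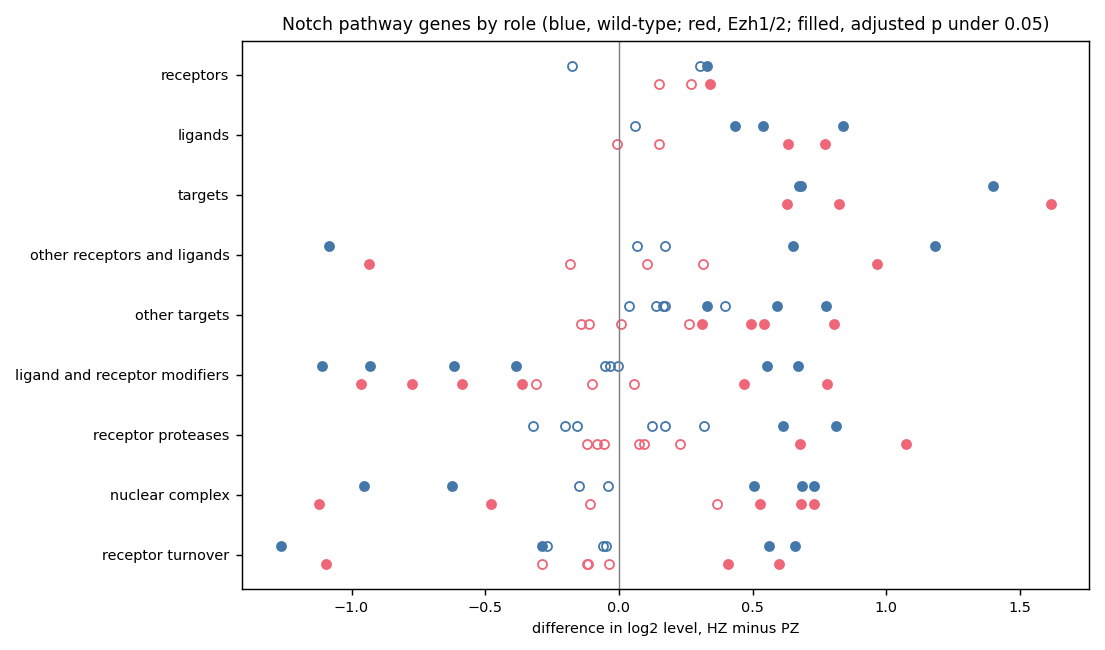
Difference in log2 level, HZ minus PZ (horizontal axis), of the measured genes of the pathway by role (rows), in wild-type (blue, upper) and Ezh1/2 mice (red, lower). Each point is a gene, and filled points passed an adjusted p of 0.05 in limma. All filled points among targets lay to the right of 0, and those among modifiers, the nuclear complex and receptor turnover lay on both sides.

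The second question was whether loss of Ezh2 in cartilage, on the Ezh1-/- background, changed the pathway. In the PZ 0 of the 10 genes passed the adjusted p in limma, where 0.411% of all probe sets did, and in the HZ 0 of 10, where 0.0169% did. Of the 10 genes, each had an unadjusted p of limma above 0.05 in both zones. The groups overlapped for each of the 10 genes in both zones, whereas 0.834% of all probe sets did not overlap in the PZ and 0.457% did not in the HZ. The median difference of the 10 genes was 0.06 in each zone.

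Notch1 came nearest in the PZ, with levels of 4.55 to 4.85 in wild-type and 4.70 to 5.01 in Ezh1/2 mice. The difference was 0.16 (95% interval -0.01 to 0.32, adjusted p = 0.709), and the exact permutation test of this gene alone gave p = 0.0411 (two-sided), the lowest of the 10. In the HZ the lowest exact permutation p was 0.0844, for Notch2, whose levels were 5.71 to 6.58 in wild-type and 6.04 to 6.99 in Ezh1/2 mice (difference 0.35, 95% interval -0.03 to 0.73, adjusted p = 0.793). Ezh1/2 HZ arrays 3, 4 and 6 were highest of their group for Notch2 (6.99, 6.67 and 6.70) and for skeletal muscle markers (8.45, 9.80 and 8.95). The same arrays were also highest for perichondrium and fibroblast markers (7.22, 8.36 and 9.13). Arrays 3 and 6 were highest for smooth muscle and pericyte markers (5.66 and 5.87). Wild-type HZ array 1, lowest of its group for Notch2, had a skeletal muscle mean of 6.96 and a perichondrium and fibroblast mean of 7.13. The part of these tissues in the Notch2 difference was not tested. The intervals of the other genes show what size of change these arrays leave possible. In the PZ, Hes1 differed by -0.13 (-0.49 to 0.23), Dll4 by 0.14 (-0.09 to 0.37) and Jag1 by 0.05 (-0.11 to 0.21). In the HZ, Hes1 differed by 0.08 (-0.33 to 0.50), Heyl by -0.16 (-0.59 to 0.28) and Jag1 by 0.28 (-0.14 to 0.71). The other Dll1 probe set, with PZ levels of 3.32 to 3.62 in wild-type and 3.58 to 3.85 in Ezh1/2 mice, differed by 0.24 (adjusted p = 0.359, exact permutation p = 0.00649, two-sided), while the main one differed by 0.08 (adjusted p = 0.908).

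**Figure D5:**
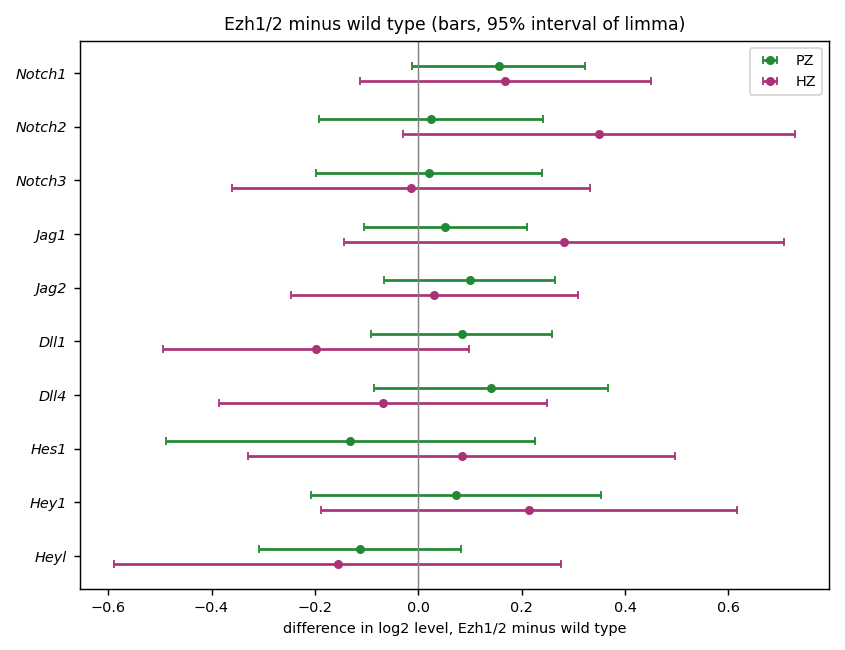
Difference in log2 level, Ezh1/2 minus wild-type (horizontal axis), of the 10 genes in the PZ (green) and the HZ (purple), with 95% intervals from limma over the 12 arrays of a zone. Every interval included 0, and the widest belonged to the HZ.

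Of the 44 other pathway genes, 0 passed the adjusted p between genotypes in either zone. Dlk2 had the lowest p of them in the HZ, with a difference of -1.02 (standard error 0.23, adjusted p = 0.247), followed by Aph1b, a subunit of gamma-secretase (-0.43, adjusted p = 0.4). In the PZ, Dlk1 differed by 0.61 (standard error 0.19, adjusted p = 0.35) and Rfng, the third fringe enzyme, by -0.28 (adjusted p = 0.506). The test of whether the zone difference depended on genotype called 0 of the 10 genes and 0 of the 44, where 0.029% of all probe sets were called. Values of this difference ran from -0.28 for Dll1 to 0.33 for Notch2 among the 10 genes, and it was -0.87 for Dlk2 (adjusted p = 0.491).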

How the data were processed

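The authors deposited log2 expression values of 41345 probe sets on 24 arrays (Affymetrix Mouse Gene 2.0 ST), normalised together by RMA, and analysed them in Partek Genomics Suite. These log2 values were used as deposited. Scanner files were not used here. The number of arrays limits precision, and p-values rest on the spread between arrays of a group. That spread holds dissection and amplification as well as the animal. Without a block, the zone tests treat the 24 arrays as independent. Symbols came from the annotation of the platform (1 symbol for 23521, several for 1820, none for 16004).

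Genotypes were compared within the 12 arrays of a zone, and zones and their interaction over 24 arrays, with limma 3.58.1 in R 4.3.3 (moderated, two-sided, Benjamini-Hochberg over all probe sets, threshold 0.05). Exact permutation tests enumerated 924 arrangements. The scripts were tested on simulated data. The genes and lists were chosen with earlier results of these data known, and the probe sets of each gene by symbol alone. All 10 genes are named, with other pathway genes that passed a test or had the lowest p of their list. Rbpj, Ncstn and Hes5 were added after their values were seen, as were the promoters of Hey2 and Lfng.

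The study describes both zones of the same animals. Same-numbered zones correlated in their deviations from group means at -0.125 to 0.282, and sex-linked genes of wild-type numbers 3 and 5 differed between the zones, so the numbers were not used as pairs. Alternatives were a replicate block, other normalisations, filters, thresholds and spreads, the mean over probe sets, and each array left out.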

Additional observations from a re-analysis of the deposited data

Results flagged for a closer look

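Of 40 combinations of gene and group, 1 held an array set apart from the other 5 by more of the group's range than Dixon's criterion allows, where chance alone marks about 1 in 20. Notch1 in the Ezh1/2 HZ was 5.57 on array 6, and the next highest array was at 5.19. The Notch1 zone difference in Ezh1/2 mice kept its call without this array.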

How the results depend on the processing

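The number of the 10 genes called (members called) was 0 between genotypes in both zones and 0 for the interaction under every alternative run, the replicate block included, and with the replicate block it was 7 in wild-type and 6 in Ezh1/2 mice for the zones. Restricting the test to probe sets above the median level left 4 called in wild-type mice, since Dll4, Dll1 and Jag1 lie below it. The same filter took Dll4 and Jag1 out of the test in Ezh1/2 mice. Calls of Hes1, Dll4, Hey1, Heyl and of Dll1 in wild-type mice held under all alternatives in which they were tested. Under the study's threshold (unadjusted p under 0.001 and fold change over 1.3) Notch1 was not called in either genotype and Jag1 not in wild-type mice. Without both zones of wild-type numbers 3 and 5, chosen after seeing the data, the wild-type differences were 0.29 for Notch1 (adjusted p = 0.123) and 0.43 for Jag1 (adjusted p = 0.0768). The cause was not tested.

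Values that changed sign were all uncalled on both sides. Quantile normalisation gave 0.0715 for Notch2 and -0.0506 for Jag2 between zones in wild-type mice and 0.0027 for Notch3 between genotypes in the HZ, where centring gave 0.0062. Centring gave 0.0009 for the Notch3 interaction. Without the 3 HZ arrays of narrowest range, chosen after seeing the data, the genotype difference in the HZ was 0.048 for Notch3, -0.0637 for Jag2 and -0.0136 for Hes1, and the interaction was -0.0638 for Notch1 and 0.0267 for Notch3. Without both zones of wild-type numbers 3 and 5 the Notch3 interaction was 0.0329. With each array left out, genotype differences in the PZ ran from -0.0165 to 0.0758 for Notch2 and from -0.0212 to 0.103 for Notch3, and in the HZ from -0.0977 to 0.0842 for Notch3, -0.029 to 0.111 for Jag2, -0.124 to 0.0187 for Dll4 and -0.016 to 0.203 for Hes1. The zone difference of Jag2 in Ezh1/2 mice ran from -0.0686 to 0.0713, and the interaction from -0.0712 to 0.0598 for Notch1, -0.119 to 0.0628 for Notch3, -0.128 to 0.0117 for Jag2 and -0.204 to 0.0419 for Heyl.

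Counts over all probe sets moved more. The 170 called in the PZ became 83 with the replicate block, 89 with 1 spread over 24 arrays, 316 at the study's threshold and 97 to 161 with an array left out. The 7 in the HZ became 1 with the block, 13 over probe sets of 1 symbol, 11 after quantile normalisation, 136 at the study's threshold, 202 with 1 spread, 0 without the narrow arrays and 0 to 6 with an array left out. The zones' 13707 and 12372 calls became 6764 (2753 higher, 4011 lower) and 6425 (2587 higher, 3838 lower) at the study's threshold. Above the median level they were 9116 (3064 higher, 6052 lower) and 8683 (2838 higher, 5845 lower) of 20672. The 12 for the interaction became 19 with the block, 7 after quantile normalisation or above the median level, 128 at the study's threshold, 0 without wild-type numbers 3 and 5 and 7 to 20 with an array left out. Signal over background was not given by the values, so a low level cannot be told from absence.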
